A study of Mus musculus with 24 samples.

Results

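Gene expression in the ventral prostate of the Swiss-derived inbred strains SWR and FVB was compared with that of AKR, 129X1, BALB/c and C57BL/6. Arrays were assigned by the strain named in their titles, which gave 8 arrays of Swiss-derived mice (4 SWR and 4 FVB) of 24 in all, and 16 arrays of the other strains (4 of each). Mice of every strain were labelled wild type, aged 8 weeks, untreated and kept on a standard diet, and each array held total RNA of 1 biological replicate. The series was titled as a search for cancer modifiers by expression mapping in parental strains. The labels used here name no substrain, and each inbred strain is close to a single genotype, so the comparison sets 2 genotypes against 4. Ancestry, histocompatibility haplotype and any other trait shared by SWR and FVB cannot be told apart in this design.

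SWR and FVB descend from Swiss mouse stocks and carry the q haplotype of H2, the major histocompatibility complex of the mouse, whereas AKR carries k, BALB/c carries d, and 129X1 and C57BL/6 carry b. Class I molecules of this complex present peptides from inside the cell, class II molecules present peptides from outside it, and both kinds differ in sequence between haplotypes. The ventral prostate is a lobe whose luminal epithelium secretes proteins into the seminal fluid, around ducts wrapped in basal cells, smooth muscle and fibroblasts. Interferons induce a common set of antiviral genes in most cell types, many of them through a short promoter element, the interferon-stimulated response element.

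Values are log2 of the rescaled intensity plus 16, and the lowest value this scale can take is 4. A probe set is a group of array probes for the same transcript, and 15775 probe sets bright enough to test covered 9431 genes. Over these probe sets, arrays of the same strain had a mean correlation of 0.957, SWR with FVB had 0.939, and a Swiss-derived with another strain had between 0.914 and 0.938. The luminal and secretory identity of the tissue was clear in both groups: the secreted protein Msmb lay between 12.11 and 12.86 on the Swiss-derived arrays and between 11.51 and 13.69 on the others, and the prostate homeobox gene Hoxb13 lay between 9.79 and 10.10 and between 9.58 and 10.29. The seminal vesicle genes Svs3a and Svs5 stayed at or under 5.81 on the Swiss-derived arrays and at or under 6.28 on the others. A list of secretions of the dorsolateral and anterior prostate and the seminal vesicle differed, however. Its mean score was -0.23 in SWR and -0.27 in FVB, and ran from -0.09 in 129X1 to 0.47 in BALB/c among the other strains. The 4 highest skeletal muscle scores were all on arrays numbered replicate 4, at 1.10 in SWR, 1.71 in 129X1, 0.687 in C57BL/6 and 0.166 in AKR.

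SWR and FVB differed from each other at fewer probe sets than either did from any of the other 4 strains. The test was limma's moderated test with Benjamini-Hochberg adjustment over all probe sets, called at an adjusted p under 0.05. SWR against FVB gave 1084 called probe sets (6.87%). SWR gave 1452 against 129X1 (9.2%), 1583 against AKR (10%), 3117 against BALB/c (19.8%) and 1258 against C57BL/6 (7.97%). FVB gave 1340 against 129X1 (8.49%), 1171 against AKR (7.42%), 1826 against BALB/c (11.6%) and 1706 against C57BL/6 (10.8%). The pair of Swiss-derived strains was thus lowest, but close to FVB against AKR. Without single arrays its count fell to 695 (SWR replicate 1), 654 (SWR replicate 2) or 615 (FVB replicate 3). With an adipocyte marker score of each array in the fit, which was uneven between SWR and FVB, the count was 340. The other pairs were not recounted in these settings, so whether this pair stays lowest there was not tested.

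**Figure D1:**
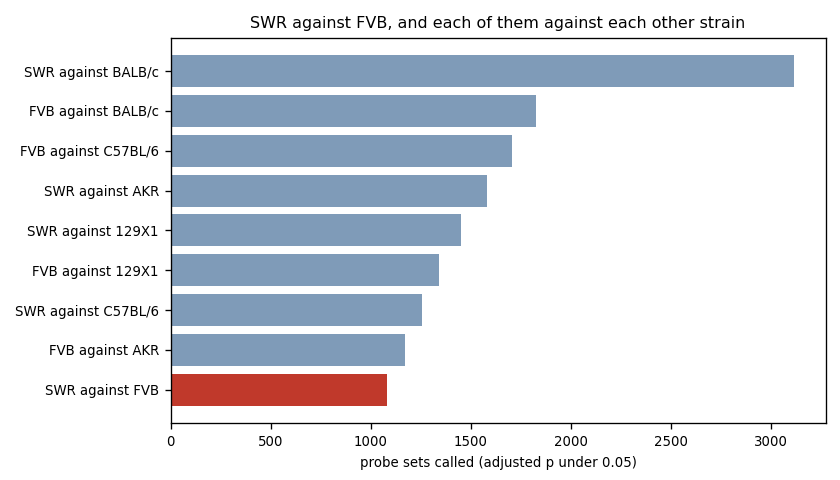
Number of probe sets called at an adjusted p under 0.05 (horizontal axis) for SWR against FVB and for each of them against each other strain (rows). The bar of SWR against FVB, at 1084, is the shortest, and that of SWR against BALB/c, at 3117, the longest.

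Set against the average of the 4 other strains, SWR and FVB together differed at 1576 of 15775 probe sets (9.99%), of which 841 were higher (5.33%) and 735 lower (4.66%). A probe set was called separated when it passed this test and both Swiss-derived strain means also lay on the same side of all 4 other strain means. This held for 696 probe sets (4.41%) in 563 genes, with 354 probe sets higher (2.24%) and 342 lower (2.17%), while 880 passed the test without that order. The order of the means alone, with no test, was found at 1686 probe sets (10.7%), 810 higher (5.13%) and 876 lower (5.55%). Any pair of strains can stand outside the rest in this way at some probe sets. How often other pairs did was not counted, so this share is not a measure of what SWR and FVB have in common. SWR and FVB themselves differed at 30 of the 696, beside 1084 of all 15775 (6.87%). The rule asks for both means on the same side, so this count is not separate evidence that the 2 strains agree. Separated differences of at least 2-fold were found at 49 probe sets (0.311%), 27 higher (0.171%) and 22 lower (0.139%). A stricter rule asked that each Swiss-derived strain pass its own test against each of the other 4 strains, 8 tests in 1 direction. It left 37 probe sets (0.235%), 16 higher (0.101%) and 21 lower (0.133%), of which 31 had a single gene symbol and covered 25 genes, 10 higher and 15 lower. In 20 of these 25 genes all 8 Swiss-derived arrays lay outside all 16 others. Counted by probe set rather than by gene, this was so for 43 of all tested (0.273%). The 25 genes were chosen by the 8 tests on the same arrays, which favour such a gap, so it is a description and not separate evidence.

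These p values set the difference against the spread between mice of a strain, not the spread between strains. With strain as a random block, 80 probe sets were called and 75 of them separated, and with only the 6 strain means as data points 3 were called. The block fit assumed 1 correlation between arrays of a strain, 0.294, for every probe set. Its p values can thus be too small where strains differ by more than that. H2-Q10, with means of 5.37 to 9.69 in the other strains, passed the block fit (adjusted p = 0.00221) but not the fit on the 6 strain means. With the smooth muscle score of each array in the fit, 257 were called. That score was itself uneven between the groups, at means of 0.29 in SWR and 0.46 in FVB against -0.63 to 0.33 in the others. Such a covariate lowers the precision of this contrast. The separated count of at least 2-fold was then 48, against 49 without the score, and the part of muscle content was not tested. In whole tissue, fewer cells of a type and less RNA per cell cannot be told apart.

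Among the genes that were higher in SWR and FVB, Ctla2a had the widest difference of those that passed all 8 pairs, each taken at its brightest probe set that did so. It encodes an inhibitor of cysteine proteases of the cathepsin type. Its values on the Swiss-derived arrays were 7.23, 7.23, 7.74 and 8.06 in SWR and 7.41, 8.17, 7.98 and 8.27 in FVB, and the 16 other arrays ran from 5.16 through a median of 5.67 to 5.98. No Swiss-derived array overlapped the others. The difference was 2.15 ± 0.12 on the log2 scale (SE), a 4.42-fold higher level (adjusted p = 4.67e-12).

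Cd59a, a membrane protein that blocks assembly of the complement attack complex, was higher at both of its probe sets. At the brighter probe set SWR arrays had 8.52, 8.59, 9.06 and 8.68 and FVB arrays 8.47, 8.68, 8.69 and 8.60, against a range of 7.17 to 7.93 with a median of 7.46 on the others. All 8 Swiss-derived arrays were above all 16 others, and the difference was 1.23 ± 0.08 (2.34-fold, adjusted p = 6.68e-11). The dimmer probe set gave a wider difference of 2.65, with strain means of 8.02 in SWR and 7.48 in FVB against 4.71 to 5.56 in the other strains. Ctla2a and Cd59a (at its dimmer probe set) were the only genes with a single-symbol probe set called on the 6 strain means, each at an adjusted p of 0.0272.

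Slc25a30, a carrier of the inner mitochondrial membrane, was separated at all 4 of its probe sets. The brightest read 10.10, 10.38, 9.88 and 10.69 in SWR and 10.49, 10.11, 10.42 and 10.37 in FVB, against 8.48 to 9.76 (median 9.01) on the other arrays. The groups did not overlap, although 129X1, with a mean of 9.62, stood nearer to the Swiss-derived strains than AKR, BALB/c or C57BL/6, whose means were 8.81 to 8.94. The difference was 1.23 ± 0.10 (2.35-fold, adjusted p = 2.05e-09).

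Ibsp, which encodes bone sialoprotein, a matrix protein known from mineralised tissue, was low in every strain but least so in FVB. Its levels were 5.74, 5.89, 5.77 and 5.72 in SWR and 6.44, 6.27, 6.57 and 6.42 in FVB, against 4.47 to 5.55 (median 4.88) on the other arrays. No array overlapped, and SWR was below FVB by 0.64 (adjusted p = 0.0142 for that pair). The difference between the groups was 1.19 ± 0.10 (2.27-fold). The other Ibsp probe set lay close to the bottom of the scale in AKR, 129X1, BALB/c and C57BL/6, at means of 4.07 to 4.10, and was at 5.32 in SWR and 6.77 in FVB.

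Several further genes higher in both Swiss-derived strains encode enzymes of aldehyde, retinoid and lactate metabolism. Aldh3a2, the fatty aldehyde dehydrogenase, ran from 9.24 to 9.88 with a median of 9.50 on the Swiss-derived arrays and from 8.40 to 8.86 with a median of 8.67 on the others, a difference of 0.87 ± 0.06 without overlap. Dhrs4, a carbonyl and retinal reductase, ran from 7.89 to 8.23 against 6.68 to 7.72, also by 0.87. Ldhb, the heart-type subunit of lactate dehydrogenase, ran from 6.30 to 6.83 against 5.03 to 6.24, by 0.96. Of its 4 probe sets 3 were separated, and the brightest gave a smaller difference of 0.38. Both groups stayed apart in each of these 3 genes. The nucleoside transporter Slc28a3 was higher by 0.66 without overlap, and Fam160b1 by 0.83 with 7 of 8 arrays above the others. Reep3, which shapes the endoplasmic reticulum, passed by 0.48 at 1 of its 4 probe sets, while the other 3 did not pass and read between -0.20 and 0.01.

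**Figure D2:**
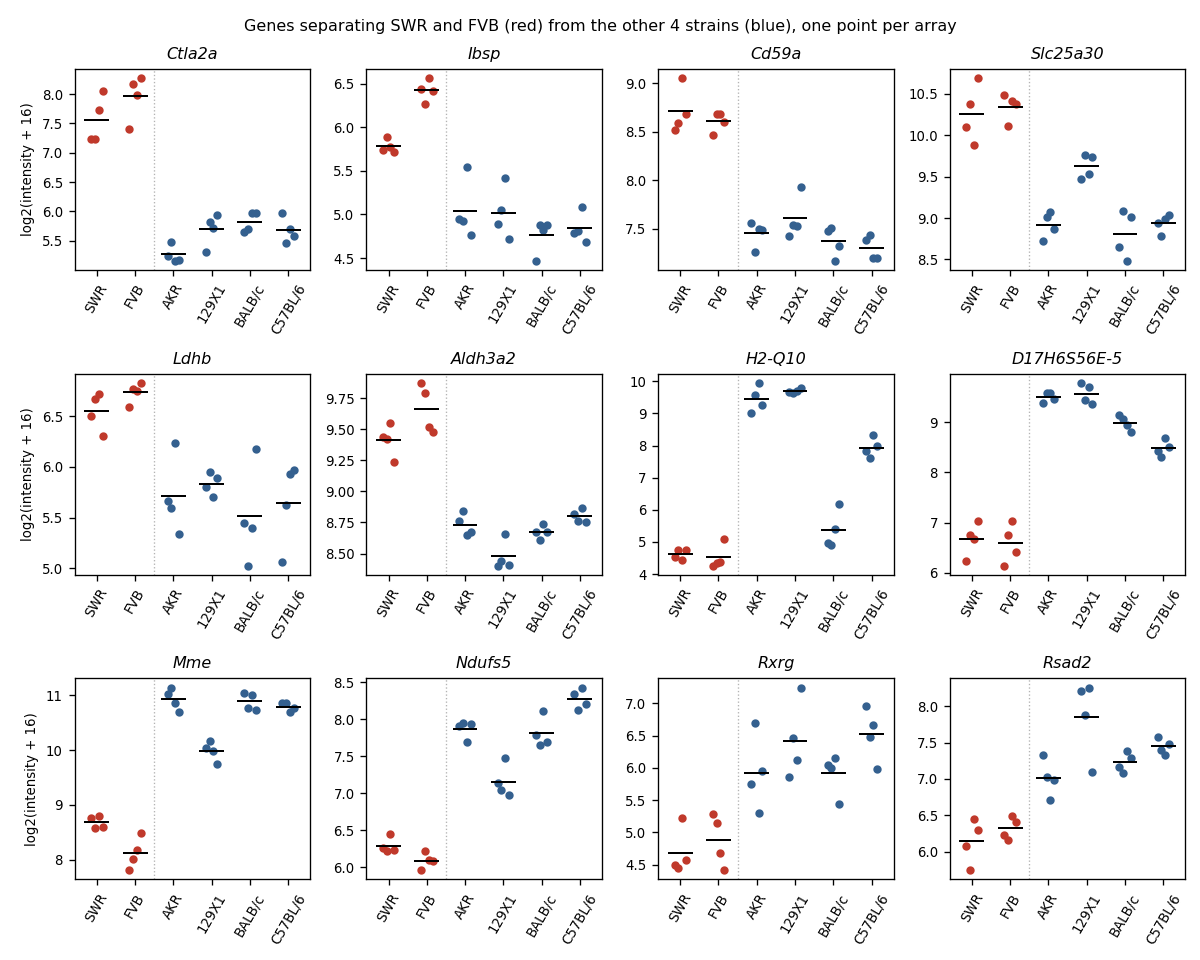
Level of 12 genes, as log2 of intensity plus 16 (vertical axes), in each strain (horizontal axes), with 1 point per array, a bar at the strain mean (n = 4), SWR and FVB in red and the other strains in blue. The first 6 panels show genes higher in SWR and FVB and the last 6 genes lower in them, and among these 12 the groups overlap only in H2-Q10, where the lowest BALB/c array (4.91) is under the highest FVB array (5.08).

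Among the genes that were lower in the Swiss-derived strains, Mme differed at both of its probe sets. Mme is neprilysin, a cell-surface peptidase that degrades substance P and other small peptides. SWR arrays read 8.77, 8.57, 8.80 and 8.59 and FVB arrays 7.80, 8.00, 8.17 and 8.49, against 9.74 to 11.14 with a median of 10.77 on the others. The groups were separated by a wide gap, and FVB was lower than SWR by 0.57 (adjusted p = 0.0116 for that pair). The difference between the groups was -2.25 ± 0.08, a 4.76-fold lower level (adjusted p = 2.12e-15), and the second probe set gave -2.67. Of the 11 tested genes of a list of neuropeptide precursors and their processing and degrading enzymes, 4 were lower (36.36%, against 4.61% of all genes) and 2 higher (18.18%, against 5.43%). Beside Mme, the aminopeptidase Anpep was lower by -0.61 and separated, and Pam (-0.33) and Dpp4 (-0.33) passed without that order. The carboxypeptidase Cpe (0.50) was higher and separated. Tac1, the precursor of substance P, passed at 1.25, but not with both means outside the others: SWR averaged 10.13 and FVB 8.33, against 10.44 in BALB/c and 5.70 in AKR.

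Ndufs5, a subunit of respiratory complex I, was lower in SWR and FVB than in any other strain. SWR arrays had 6.27, 6.23, 6.45 and 6.23 and FVB arrays 5.96, 6.21, 6.10 and 6.08, against 6.97 to 8.43 with a median of 7.84. No array overlapped, and the difference was -1.59 ± 0.07 (adjusted p = 2.08e-13). A list of 30 tested respiratory chain genes held 1 called gene, Ndufb5, at -0.36 (3.33% lower, against 4.61% of all genes). Its median difference was -0.08.

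The nuclear retinoid receptor gene Rxrg ran from 4.41 to 5.28 (median 4.62) in the Swiss-derived strains and from 5.30 to 7.24 (median 6.08) in the others, a difference of -1.41 ± 0.18. The gap between the closest arrays was narrow, and the lower values were near the bottom of the scale. Vps37c, part of the ESCRT machinery that sorts membrane proteins, ran from 6.16 to 6.89 against 7.26 to 7.78. The groups did not overlap, the difference was -0.98 ± 0.06, and SWR was below FVB by 0.58 (adjusted p = 0.000352). A second Vps37c probe set, however, read -0.14 and did not pass. The helicase gene Dhx30 was lower by -1.09 at a dim probe set and by -0.49 at another, whereas its brightest read 0.19 and did not pass. Yae1d1 was lower by -0.85 with 7 of 8 arrays below the others, and its second probe set read 0.18 without passing. Rnf14, the only other gene lower in all 8 pairs, was lower by -0.67 at 1 of its 4 probe sets.

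The H2 region on chromosome 17, taken from H2-K1 to H2-M3 in the order of RefSeq genes, held a larger share of separated genes than the tested genes as a whole. Of its 89 tested genes, 5 were higher and 13 lower (20.2% called, against 10% of all genes), and 4 higher and 8 lower were separated (13.5%, against 4.7%). The lower ones were H2-Ke6 (-0.38), Tap1 (-0.40), H2-Eb1 (-1.11), D17H6S56E-5 (-2.51), Vars (-1.05), Clic1 (-0.31), H2-Q10 (-3.54) and Tcf19 (-0.42). The higher ones were Neu1 (0.33), H2-D1 (1.09), Flot1 (0.32) and Abcf1 (0.44). Neighbouring genes are not independent of each other, and no test was made of the region as a whole.

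H2-Q10, a class I gene whose product is known as a secreted form from liver, had the widest difference of the named genes. It was near the bottom of the scale in both Swiss-derived strains, at 4.52, 4.76, 4.43 and 4.75 in SWR and 4.26, 4.35, 4.39 and 5.08 in FVB. Strain means elsewhere were 9.44 ± 0.41 in AKR, 9.69 ± 0.06 in 129X1, 5.37 ± 0.59 in BALB/c and 7.93 ± 0.31 in C57BL/6 (SD, n = 4 each). BALB/c overlapped the Swiss-derived arrays, while the other 3 strains stood far above. The difference of -3.54 ± 0.15 (11.7-fold) averages over these unequal strains, and it was not called on the 6 strain means.

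D17H6S56E-5, a locus of the class III part of the region, had 6.23, 6.76, 6.66 and 7.02 in SWR and 6.14, 6.75, 7.04 and 6.42 in FVB, against 8.31 to 9.78 with a median of 9.25. All 8 arrays were below all others, by -2.51 ± 0.10 (5.68-fold), and the second probe set gave -2.63. Its neighbour Vars, the valyl-tRNA synthetase, ran from 6.52 through 6.73 to 6.96, against a median of 7.84 and a maximum of 8.17 in the others, a difference of -1.05 ± 0.09. No array overlapped, but the lowest BALB/c array lay just above the highest FVB array.

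H2-Eb1, the beta chain of the class II E molecule, had a range of 6.49 to 7.17 (median 6.99) in SWR and FVB and of 7.60 to 8.59 (median 7.99) in the other strains. The groups did not overlap, and the difference was -1.11 ± 0.09 (2.16-fold lower). Of 9 tested class II and loading genes, H2-Eb1 and H2-Aa were lower (22.22%, against 4.61% of all genes). H2-Aa was not settled by its probe sets: the brighter read -0.50 and the dimmer 0.46, and both passed. The other 7 did not pass, with H2-Ea at -0.37, H2-Oa at -0.27, the regulator Ciita at -0.14, the invariant chain Cd74 at -0.09, H2-DMb2 at -0.07, H2-DMa at -0.05 and H2-Ab1 at 0.08.

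The class I genes themselves gave no single direction. Of 7 tested genes H2-D1 was higher and H2-Q10 lower (14.29% each, against 5.43% and 4.61% of all genes). B2m, the light chain shared by all class I molecules, was at 0.08. H2-K1 was at 0.22, H2-Bl at 0.13, H2-T3 at 0.05 and H2-M3 near 0. Of the 8 probe sets of H2-D1, 4 were higher and 4 lower. At the brightest, SWR and FVB averaged 10.99 and 10.65, against 8.09 in AKR, 10.52 in 129X1, 9.82 in BALB/c and 10.48 in C57BL/6. Each of the 4 lower probe sets was bright in a single strain, BALB/c at 3 of them and AKR at 1, and between 4.73 and 6.50 in every other strain. The 4 probe sets of H2-K1 likewise ranged from -0.60 to 1.32, and at the highest of these AKR stood alone at 6.33 while SWR averaged 10.25 and FVB 9.88. Probes of such polymorphic genes can match one haplotype better than another, and the part of that in the class I and class II values was not tested. How well probes match the sequence of each strain was not tested for any other gene either. Ctla2a, Aldh3a2, Ndufs5, Rxrg, Vars, Irf2, Ifit1, H2-Eb1 and H2-Q10 each rest on 1 tested probe set.

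The genes that prepare peptides for class I molecules were lower where they differed. Of 11 tested, 5 were lower (45.45%, against 4.61% of all genes) and none higher: the immunoproteasome subunits Psmb8 (-0.40) and Psmb9 (-0.31), the peptide transporter subunit Tap1 (-0.40), the chaperone Pdia3 (-0.31) and the proteasome activator Psme1 (-0.29). Tap1 was the only separated one, with strain means of 6.13 in SWR and 6.33 in FVB, against 6.47 to 6.87. Those that did not pass were Psmb10 (-0.29), Tapbp (-0.16), Erap1 (-0.13), Calr (-0.10), Tap2 (-0.09) and Canx (-0.02). All 11 differences were negative, with a median of -0.29, beside a median of -0.01 over the 9431 genes tested.

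**Figure D3:**
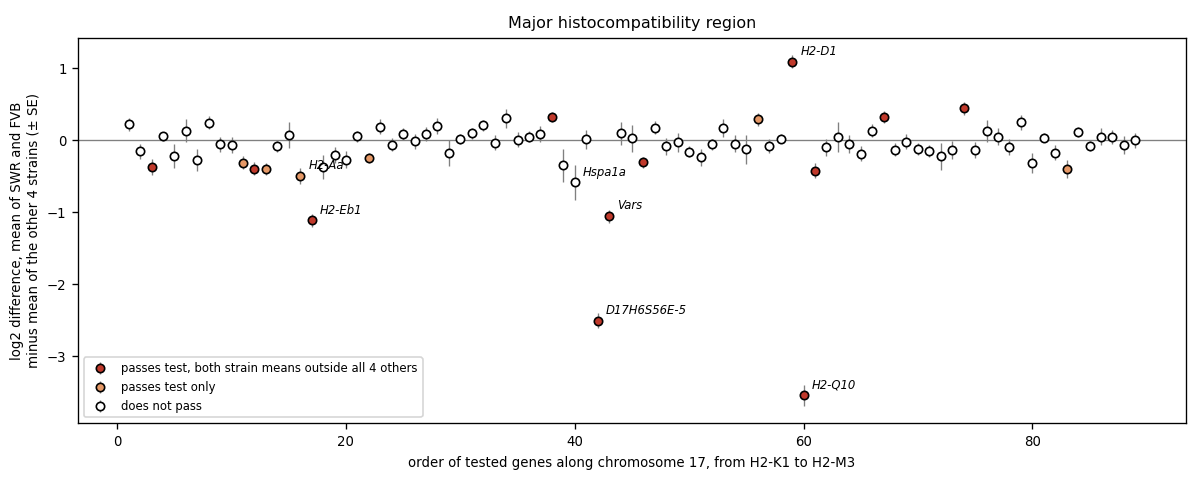
Difference between the mean of SWR and FVB and the mean of the other 4 strains on the log2 scale (vertical axis, ± SE) for the 89 tested genes from H2-K1 to H2-M3, in their order along chromosome 17 (horizontal axis). Most genes lie near 0, with H2-D1 at 1.09 above and H2-Eb1, D17H6S56E-5, Vars and H2-Q10 between -1.05 and -3.54 below.

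Interferon response genes were lower in SWR and FVB. Of 32 listed genes 24 were on the array and 22 bright enough to test. Of these, 14 were lower (63.64%, against 4.61% of all genes) and none higher, and 12 of the 14 were separated (54.55%, against 2.27%). With strain as a random block 4 were called lower, and on the 6 strain means none were. The median difference was -0.56, beside -0.01 over all genes, and 20 of 22 differences were negative. Rsad2 and Ifit1 also passed in all 8 pairs of strains, and the list counts are a description, since the list was chosen with these data known.

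The promoters of 4 of the lower genes are shown to place the interferon-stimulated response element, searched on both strands as GAAA, any 2 bases and GAAA again, which reads TTTC, any 2 bases and TTTC where it lies on the strand opposite to the one printed. Each is the RefSeq window of GRCm38.p6 from 250 bases before to 50 bases after the annotated start, printed in the direction of transcription, with matches in capitals.
Rsad2 (chr12:26456403-26456702, minus strand): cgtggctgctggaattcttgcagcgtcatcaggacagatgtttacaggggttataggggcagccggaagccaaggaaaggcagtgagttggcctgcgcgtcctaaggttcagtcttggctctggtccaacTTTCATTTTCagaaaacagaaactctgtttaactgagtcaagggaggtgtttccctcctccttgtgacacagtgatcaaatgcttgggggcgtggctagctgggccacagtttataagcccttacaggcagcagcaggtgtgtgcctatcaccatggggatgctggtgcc
Ifit1 (chr19:34640639-34640938, plus strand): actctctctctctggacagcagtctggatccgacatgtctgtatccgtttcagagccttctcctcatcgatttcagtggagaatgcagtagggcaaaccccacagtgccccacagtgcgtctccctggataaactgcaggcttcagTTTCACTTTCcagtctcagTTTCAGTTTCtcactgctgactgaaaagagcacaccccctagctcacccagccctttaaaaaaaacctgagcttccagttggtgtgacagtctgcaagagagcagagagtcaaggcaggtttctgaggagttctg
Ifit3 (chr19:34583279-34583578, plus strand): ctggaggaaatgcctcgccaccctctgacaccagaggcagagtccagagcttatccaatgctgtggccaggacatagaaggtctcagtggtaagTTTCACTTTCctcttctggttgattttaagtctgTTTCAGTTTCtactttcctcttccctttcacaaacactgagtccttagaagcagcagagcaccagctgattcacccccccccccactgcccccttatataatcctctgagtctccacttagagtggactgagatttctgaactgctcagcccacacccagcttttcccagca
Oas1a (chr5:120907476-120907775, minus strand): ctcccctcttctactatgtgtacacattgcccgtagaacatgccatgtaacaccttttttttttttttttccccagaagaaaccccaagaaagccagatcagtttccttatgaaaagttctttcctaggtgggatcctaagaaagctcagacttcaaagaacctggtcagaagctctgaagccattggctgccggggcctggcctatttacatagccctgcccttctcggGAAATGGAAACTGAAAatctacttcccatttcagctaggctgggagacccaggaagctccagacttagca
Rsad2 had 1 match and Ifit1, Ifit3 and Oas1a 2 each, those of Oas1a overlapping. The element was found in 1131 of 32851 promoter windows (3.44%), and in at least 1 window of 1079 of 27025 genes (3.99%). Of the 17 tested interferon genes with a window, 12 held it: 8 of 12 that were lower and 4 of 5 that did not pass. A match in these letters is a description of the window and not a measurement of binding. The windows are those of the reference build, and the sequences of SWR and FVB were not examined.

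Rsad2, known as viperin, inhibits the replication of many viruses. It read 6.08, 5.74, 6.45 and 6.30 in SWR and 6.23, 6.16, 6.49 and 6.41 in FVB, against 6.71 to 8.26 with a median of 7.33 on the other arrays. No array overlapped, the difference was -1.16 ± 0.12 (2.23-fold lower, adjusted p = 2.64e-07), and all 3 of its probe sets were separated. Ifit1, which binds foreign RNA caps, read 5.93, 5.78, 6.21 and 6.02 in SWR and 6.57, 6.30, 6.27 and 6.45 in FVB, against 6.48 to 7.75 with a median of 7.06. Of the 8 Swiss-derived arrays 7 were below all others, by -0.96 ± 0.13 on average (adjusted p = 9.75e-06). Its neighbour on chromosome 19, Ifit3, was lower by -0.86 and separated as well.

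The other lower genes covered sensors, transcription factors and effectors. Ifih1, a cytosolic sensor of double-stranded RNA, was lower by -0.85, with strain means of 6.62 and 6.64 in SWR and FVB against 7.14 to 7.73. Among the transcription factors Irf7 was lower by -0.96, Irf9 by -0.54 and Stat2 by -0.35, all separated. The oligoadenylate synthetase Oas1a (-0.70) and the related Oasl2 (-1.07) were separated, and Oas2 (-0.39), Oas3 (-0.16) and Oasl1 (-0.38) did not pass. Rtp4 (-1.11), the interferon-feedback protease Usp18 (-0.78) and the chemokine Cxcl10 (-0.66) were separated too, while Ifitm3 (-0.27) and Psmb8 (-0.40) passed without that order. The genes that did not pass further included Bst2 (-0.57), Ifi27l2a (-0.53), Igtp (-0.26), Iigp1 (0.00) and Gbp2 (0.20), the last 3 of which encode GTPases induced mainly by interferon gamma. Irf2 and Plscr1, which are outside the list, are named because they passed all 8 pairs, and interferon-linked genes outside the list were not counted as a set. Irf2, a transcription factor that binds the same element, was lower by -1.01 ± 0.13. It ran from 6.43 to 7.21 (median 6.91) against 7.12 to 8.41 (median 7.89), with 6 of 8 arrays below the others. Plscr1, a phospholipid scramblase induced by interferon, was lower by -0.93 ± 0.09 without overlap, from 5.81 to 6.54 against 6.63 to 7.51.

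The interferon score of an array, the mean of its 22 log2 values after each gene was centred over the 24 arrays, ran from -0.60 through a median of -0.40 to -0.21 in SWR and FVB and from -0.11 through 0.09 to 0.69 in the others. The groups did not overlap. Strain means were -0.50 in SWR and -0.27 in FVB, against 0.26 in AKR, 0.37 in 129X1, 0.03 in BALB/c and 0.11 in C57BL/6. The 129X1 arrays spread widest (SD 0.34, against 0.09 in SWR and in FVB).

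The interferon genes were not the only list that moved with the groups, since smooth muscle genes moved the other way. With the smooth muscle score of each array in the fit, 3 of 22 interferon genes were called lower (Rsad2, Ifit1 and Ifih1), at a similar median difference of -0.55 with 19 negative. The 4 called with strain as a random block were Rsad2 (adjusted p = 0.00383), Ifit1 (0.0168), Oasl2 (0.0356) and Ifih1 (0.0356), and on the 6 strain means 12 had an unadjusted p under 0.05. Of 13 tested genes of macrophages and lymphocytes, only the B cell gene Ms4a1 passed, at -0.46 (7.69% lower, against 4.61% of all genes). The median was -0.15, and the list's score ran from -0.23 to 0.10 in SWR and FVB and from -0.24 to 0.48 in the others.

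**Figure D4:**
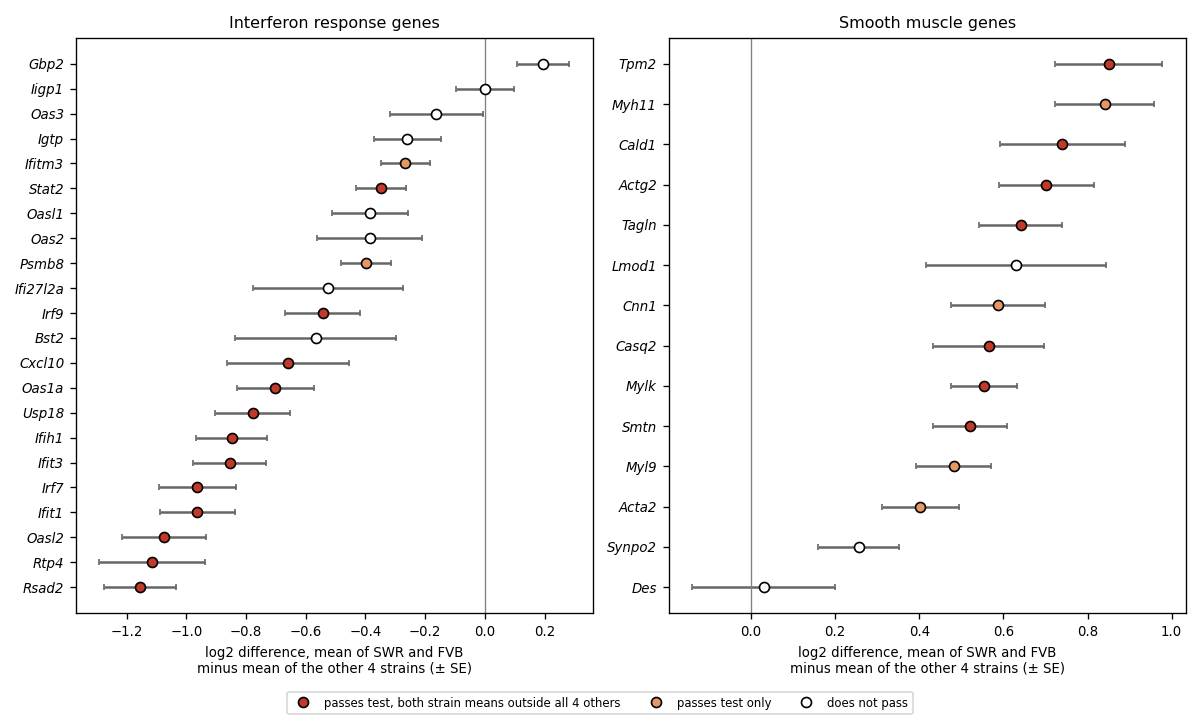
Difference between the mean of SWR and FVB and the mean of the other 4 strains on the log2 scale (horizontal axes, ± SE) for the 22 tested interferon response genes (left) and the 14 smooth muscle genes (right), filled dark red where the test was passed and both strain means lay outside all 4 others, orange where only the test was passed and white where it was not. Interferon genes run from -1.16 (Rsad2) to 0.20 (Gbp2) and smooth muscle genes from 0.03 (Des) to 0.85 (Tpm2).

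Smooth muscle genes were higher in SWR and FVB. All 14 listed genes were tested, and 11 were higher (78.57%, against 5.43% of all genes), 7 of them separated (50%, against 2.43%), with a median difference of 0.58. With strain as a random block, or on the 6 strain means, none were called, although 11 and 6 had an unadjusted p under 0.05. Tpm2, a tropomyosin, averaged 10.61 in SWR and 10.92 in FVB against 9.14 to 10.44 in the other strains, a difference of 0.85. The smooth muscle myosin Myh11 was higher by 0.84, but 129X1, at 9.62, lay level with SWR at 9.62 and FVB at 9.67. Cald1 (0.74), Actg2 (0.70), Tagln (0.64), Casq2 (0.56), Mylk (0.55) and Smtn (0.52) were separated, and Cnn1 (0.59), Myl9 (0.48) and Acta2 (0.40) passed without that order. Lmod1 (0.63), Synpo2 (0.26) and Des (0.03) did not pass.

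The arrays themselves overlapped in this list. The smooth muscle score ran from -0.00425 through a median of 0.36 to 0.77 in SWR and FVB and from -0.76 through -0.18 to 0.52 in the others. Strain means were 0.29 in SWR and 0.46 in FVB, against 0.33 in 129X1, -0.19 in AKR, -0.25 in C57BL/6 and -0.63 in BALB/c, so that 129X1 stood with the Swiss-derived strains. Without the SWR array of the highest score, replicate 4, 4 genes were separated in place of 7, and without 129X1 as a strain 13 were. Replicate 4 had the highest score of its strain in 5 of 6 strains, SWR and FVB among them, in this list and in the skeletal muscle list. Without the 4 arrays of the highest skeletal muscle score, 10 genes were higher and 5 separated.

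**Figure D5:**
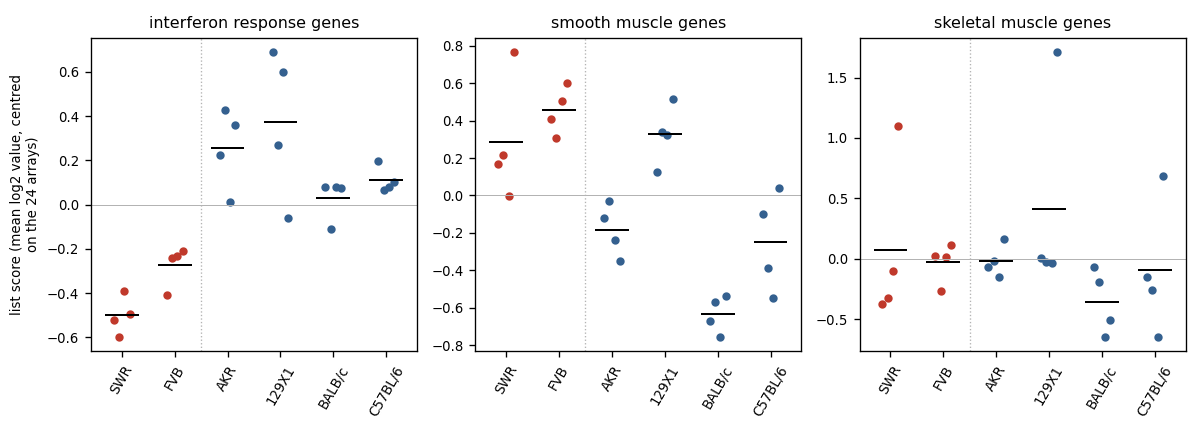
Score of the interferon response, smooth muscle and skeletal muscle lists (vertical axes, mean log2 value of the list after centring each gene on the 24 arrays) in each strain (horizontal axes), with 1 point per array and a bar at the strain mean (n = 4). Interferon scores of all SWR and FVB arrays, in red, lie at or below -0.21, under every array of the other strains, whereas smooth muscle scores of 129X1 lie among those of SWR and FVB, and the skeletal muscle list has single high arrays in SWR (1.10), 129X1 (1.71) and C57BL/6 (0.687).

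Other stromal and epithelial lists are given beside the shares over all genes, 5.43% higher and 4.61% lower, with 2.43% and 2.27% separated. Of 17 genes of fibroblasts and the extracellular matrix, 5 were higher (29.41%) and none lower, with 4 separated (23.53%): fibronectin Fn1 (0.65), Sparc (0.62) and the collagen genes Col1a1 (0.51) and Col3a1 (0.32), while Col6a1 (0.34) passed without the order. The score of this list did not set the groups apart, since 129X1, at 0.23, was level with FVB (0.23) and above SWR (0.12). BALB/c (-0.14), C57BL/6 (-0.15) and AKR (-0.29) were lower. Of 11 basal epithelial genes, the keratin genes Krt14 (0.62) and Krt5 (0.29), Col17a1 (0.59) and Dst (0.25) were higher (36.36%) and none was separated. Of 19 luminal genes, 3 were higher (15.79%) and 4 lower (21.05%), with a median of 0.00. Cdh1, the epithelial cadherin (-0.38), and the androgen receptor cochaperone Fkbp4 (-0.31) were lower and separated. Epcam (-0.31) and Krt18 (-0.24) passed without that order. Psca, a surface antigen of prostate epithelium, was higher by 1.58 but highest in 129X1, at 8.72, against 7.52 in SWR and 7.46 in FVB. Of 6 adipocyte genes Lpl (0.68) was higher (16.67%), and all 6 differences were positive, with a median of 0.57. The adipocyte score was uneven between the Swiss-derived strains, at -0.59 in SWR and 1.21 in FVB, against 1.12 in BALB/c and -0.91 to -0.07 in AKR, 129X1 and C57BL/6. Endothelial and nerve lists had no called gene among 8 and 5 tested.

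Secreted proteins gave a more local picture. The secretoglobins Scgb2b27 and Scgb1b27, small secreted proteins whose genes neighbour each other on chromosome 7, were both higher and separated, while the other 2 tested members, Scgb3a1 (-0.19) and Scgb3a2 (-0.25), did not pass. The 2 higher ones were 50% of the 4 tested, against 5.43% of all genes higher and 2.43% higher and separated. Scgb2b27 ran from 8.76 through 10.31 to 11.37 in SWR and FVB and from 5.70 through 6.52 to 10.57 in the others. BALB/c, at a mean of 8.96, accounted for the overlap, and AKR, 129X1 and C57BL/6 averaged 6.19 to 6.67. The difference was 3.09 ± 0.26 (8.53-fold, adjusted p = 6.5e-09). Scgb1b27 was higher by 1.41, with means of 7.67 in SWR and 7.12 in FVB against 5.64 to 6.57. Among 12 ventral prostate secretory genes, Clu (1.41) and Apod (0.64) were higher without the order (16.67%, against 5.43% of all genes). Clu was high in FVB alone, at 12.51 against 9.75 in SWR and 8.97 to 10.15 in the others. Of 7 tested secretory genes of the dorsolateral and anterior prostate and the seminal vesicle, 2 were lower (28.57%, against 4.61% of all genes) and none higher. Of these 2, 1 was separated (14.29% of the list, against 2.27%).

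The remaining lists stand against the same shares over all genes, 5.43% higher and 4.61% lower. Of 27 genes of glutathione metabolism and detoxification 6 were higher (22.22%) and 3 lower (11.11%), with Gsr (0.46), Gpx2 (-0.96) and Gstt3 (-0.26) separated. Mgst1 passed at 2.19, with SWR at 10.50 and FVB at 10.82, but 129X1 was at 10.72. Of 8 apolipoproteins and lipid carriers 5 were higher (62.5%) and 1 lower (12.5%), with Pltp (0.44) and Apoc1 (0.50) separated. The score of this list was high in FVB alone, at 0.49. SWR, at -0.04, lay below AKR (0.04) and 129X1 (0.02) and above BALB/c (-0.19) and C57BL/6 (-0.31). In the complement list, Serping1, the C1 inhibitor, was higher by 0.66 and Cd55 lower by -0.30, neither separated, beside Cd59a (2 of 11 higher, 18.18%, and 1 lower, 9.09%). Heat shock genes (14 tested) held Hspe1 at -0.59 as the only one called (7.14% lower), and 28 genes of endoplasmic reticulum folding held 2 lower (7.14%) and none separated. Lists of proliferation (16 tested), cytosolic ribosome (14), cholesterol synthesis (13), metallothioneins and zinc transport (15) and immediate early genes (20) had 1 to 3 called genes each, at most 7.69% higher and 13.33% lower, and none separated.

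Some separated genes lay next to each other on a chromosome, but their directions were often mixed. Runs of 3 neighbouring tested genes were H2-D1, H2-Q10 and Tcf19 on chromosome 17, H2aw (-0.51), Trim11 (0.34) and Guk1 (-0.35) on chromosome 11, Golt1b (0.47), Ldhb (0.38) and Kcnj8 (-0.40) on chromosome 6, and Wdr33 (0.34), Lims2 (0.59) and Myo7b (-0.77) on chromosome 18. Ldhb is taken here at its brightest probe set. The share of tested genes that were separated ran from 2.45% on the X chromosome to 6.4% on chromosome 17.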

How the data were processed

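The authors deposited 1 intensity value per probe set and array, made with MAS5 per the submitters' processing notes; its settings are not given in the sources used here. All 24 columns had a mean near 143, but their 2% trimmed means ran from 91.4 to 105, so arrays were rescaled to a common trimmed mean of 98.7 and log2(intensity + 16) was taken. Control probe sets (64) and 6851 dim ones (not above the 40th percentile on at least 4 arrays) were left out. Probe sets were named by the platform annotation where it gave a single symbol (20393 of 22690), and 20364 of these matched RefSeq.

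The test was limma 3.58.1 in R 4.3.3 with a coefficient per strain, Benjamini-Hochberg adjustment over 15775 probe sets and a threshold of 0.05. It was also tested on simulated data. These held no spread between strains beyond the added group effect, so they cannot show how the test behaves where strains differ. For a list, each gene counted at its brightest probe set. Named genes were the 14 widest differences in each direction among single-symbol genes passing all 8 pairs, at the brightest such probe set, called list members, runs of neighbours, and all histocompatibility list members. The comparison and lists were chosen with earlier results of these data known. Replicate numbers did not pair arrays: deviations of the same number correlated at 0.0053 on average over 60 pairs, although replicate 4 had the highest smooth muscle score in 5 of 6 strains, and the highest skeletal muscle score likewise in 5. The labels name replicates as biological and give no batch, and 4 arrays a strain limit the precision.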

Additional observations from a re-analysis of the deposited data

Results flagged for a closer look

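Of 162 sets of 4 arrays of a strain, over the named genes and 3 marker scores, 12 held an array far from the other 3 by Dixon's test, which chance alone does in about 1 set in 20. Of these 12 values 5 were of the Swiss-derived strains. SWR replicate 2 had H2-Eb1 at 6.486, where the other SWR arrays read 7.058 to 7.108. FVB replicate 4 had H2-Q10 at 5.084, the single Swiss-derived array to reach the BALB/c range, where the other FVB arrays read 4.264 to 4.388. SWR replicate 1 had Plscr1 at 6.537 (others 6.326 to 6.35), and SWR replicate 3 had Rxrg at 5.225 (others 4.442 to 4.564). FVB replicate 1 had an interferon response score of -0.4073, where the other FVB arrays read -0.2413 to -0.2076.

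The remaining 7 values came from 5 arrays of the other strains. For 129X1 replicate 3, Aldh3a2 was 8.659 (others 8.403 to 8.44) and Yae1d1 6.574 (others 6.867 to 6.922). For AKR replicate 3, Fam160b1 was 6.474 (others 5.868 to 5.969) and Slc28a3 5.928 (others 6.215 to 6.271). Ibsp in BALB/c replicate 1 was 4.469 (others 4.822 to 4.878). The interferon response score of BALB/c replicate 2 was -0.11, the lowest outside the Swiss-derived strains (others 0.07625 to 0.08127). The skeletal muscle score of 129X1 replicate 4 was 1.712 (others -0.03477 to 0.008393).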

How the results depend on the processing

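No named gene changed direction in the settings run, up to 40 for each. On the 6 strain means the contrast called 3 probe sets, all 3 separated and past 2-fold, with interferon and smooth muscle counts of 0. Of the 24 genes, each at its brightest probe set that passed all 8 pairs, Ctla2a alone passed. With strain as a random block, 80 were called and 75 separated, with 4 interferon genes lower (4 separated), 0 smooth muscle genes higher (0 separated) and all 24 named genes passing. The way these 24 were chosen favours passing. With each array's smooth muscle score in the fit, 257 were called, 149 were separated (48 past 2-fold) and 13 passed all 8 pairs. In that fit 3 interferon genes were lower (3 separated). Fam160b1 (adjusted p = 0.0874), Reep3 (0.153) and Dhx30 (0.0537) did not pass there by limma. With the adipocyte score in its place, 21 passed all 8 pairs and SWR against FVB gave 340. The 2-fold count was 77 with a pseudocount of 4 and 21 with 64. Without a strain fewer pairs had to pass, and 70 (129X1), 67 (AKR) and 60 (BALB/c) did. Without 129X1 the 2-fold count was 81 and 13 smooth muscle genes were separated. The causes of these shifts were otherwise not tested.

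Leaving out single arrays gave 1285 to 1612 called, 569 to 714 separated, 44 to 51 past 2-fold, 29 to 38 in all 8 pairs and 615 to 1163 for SWR against FVB. Interferon counts were 12 to 15 lower and 10 to 12 separated, and smooth muscle counts 11 to 12 higher and 4 to 9 separated. With the replicate number as a block the contrast called 1474, and no count moved by more than 1.5 times. The smooth muscle list was not run with its own score as a covariate.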

Other observations

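Of the 37 probe sets that passed all 8 pairs, 6 had no single gene symbol and are given by their identifiers. Probe set 1455869_at had the widest difference of the 37, 4.98 ± 0.18 (31.5-fold, adjusted p = 2.12e-15). It ran from 11.12 through 11.27 to 11.69 in SWR and FVB and from 4.55 through 5.26 to 10.82 in the others. C57BL/6, at a mean of 10.24, was bright as well, and AKR, 129X1 and BALB/c lay between 4.93 and 5.20, so the difference averages over unequal strains. Probe set 1416811_s_at was higher by 1.94 (3.84-fold). The 4 lower ones were 1428116_a_at (-1.31), 1453473_a_at (-1.30), 1426558_x_at (-1.15) and 1436462_at (-0.77).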
